A study of Mus musculus with 18 samples.

Results

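Silica particles given before lipopolysaccharide (LPS) were examined in mouse macrophages by setting 3 arrays labelled Silica-LPS against 3 labelled LPS, 6 of the 18 arrays in the series. The cells were primary macrophages that had matured from marrow cells of C57BL/6 mice, 4 to 6 weeks old, in medium conditioned by L929 cells, a mouse fibroblast line. The Silica-LPS cultures stood for 24 h with amorphous silica of 50 nm at a concentration given as 25 mg/ml, and the LPS cultures stood for 24 h in medium without particles. All 6 cultures were then washed and given 10 ng/ml of LPS from Escherichia coli for 4 h. The other groups used below were Silica, given silica for 24 h and then medium without LPS for 4 h, CON, labelled only as exposed to control medium with no times, and SPIO-LPS, given iron oxide particles of 33 nm before LPS. Whether milligrams are the true unit of that concentration is not known. The 3 cultures of a group are labelled as biological replicates without mention of separate animals or of pooling, and the p-values therefore speak only of variation among these cultures, which may be technical. Signals of 12393 genes were compared, each from 1 probe set, on the log2 scale, and genes with an adjusted p below 0.05 are referred to as called.

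LPS is a component of the wall of Gram-negative bacteria that macrophages sense through Toll-like receptor 4, which leads to cytokines and chemokines through NF-kB and to interferon-β and its target genes. Macrophages take up silica particles and hold them in lysosomes, the compartments in which ingested material is digested. Lysosomes also return cholesterol to the cell, and genes of cholesterol synthesis are switched on by the transcription factor SREBP2 when sterol in the endoplasmic reticulum is low.

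Macrophage markers were bright in both groups. Summed over 16 macrophage markers, the log2 signal was 16.43 to 16.44 in Silica-LPS and 16.43 to 16.45 in LPS, while their mean log2 signal, which weighs all markers alike, was 11.25 to 11.27 in Silica-LPS and 11.31 to 11.36 in LPS, without overlap. The marker Maf alone had a mean below 5. Of 14 fibroblast and stroma markers, only Lum and Thy1 lay below 5, and the summed log2 signal was 15.15 to 15.16 in Silica-LPS and 15.09 to 15.15 in LPS. Their mean log2 signal ran the other way, at 9.34 to 9.39 in Silica-LPS and 9.40 to 9.49 in LPS. The 14 neutrophil markers summed to 14.59 to 14.64 and 14.64 to 14.66. Array medians were 6.23 to 6.25 in Silica-LPS and 6.23 to 6.27 in LPS, and arrays of the same group correlated at 0.997 to 0.998 across probe sets, against 0.996 to 0.998 between the groups, so that no array stood apart. The signal of the 3′ control probe set minus that of the 5′ one, a sign of RNA quality, was 0.431 ± 0.0455 in Silica-LPS and 0.516 ± 0.0499 in LPS for Gapdh (SD, n = 3 each), and 0.438 ± 0.0259 and 0.377 ± 0.0526 for Actb. Neither pair of groups overlapped (exact permutation test, two-sided, p = 0.1 each, the smallest that 3 against 3 can give). The part of RNA quality in the results was not tested.

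Silica before LPS moved few genes, and with 1 probe set per gene none of them by as much as 2-fold. In all, 355 genes were called (2.86% of those tested), 234 higher (1.89%) and 121 lower (0.976%) in Silica-LPS. The median change among them was 1.24-fold, and 323 changed by less than 1.5-fold. Arg1, which encodes the arginase that splits arginine into ornithine and urea, rose the most, by 1.97-fold, and Aqp1, which encodes a water channel, fell the most, by 1.86-fold. The 3 Silica-LPS arrays lay above the 3 LPS arrays for 1569 genes (12.7%) and below them for 1148 (9.26%), so that a lack of overlap alone is common. At an unadjusted p below 0.05 there were 2077 genes. The median of all genes was 0.004 and moved slightly with level, being -0.05 for the 3034 genes with mean signals of 4 to 6 and 0.04 for the 2715 with signals of 8 to 10. When each array was left out in turn, 146 of the 355 genes were called every time, and the count fell to 186 without Silica-LPS array 3, 196 without LPS array 2 and 214 without Silica-LPS array 1. With the spread estimated from the 6 arrays alone, 63 genes were called.

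**Figure D1:**
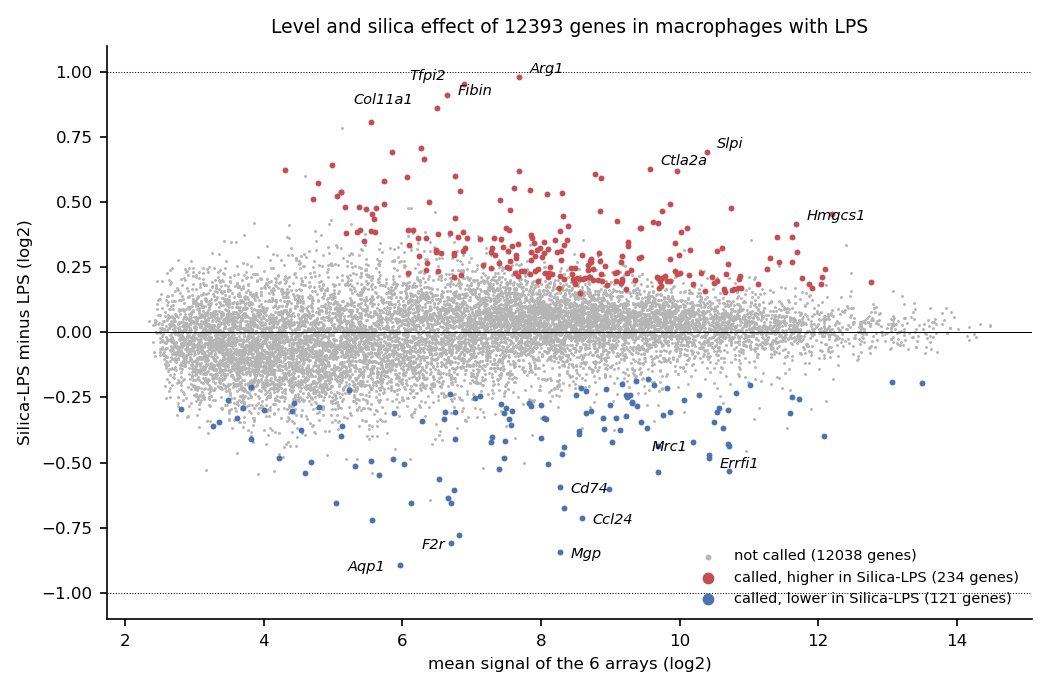
Level and silica effect of 12393 genes in macrophages with LPS. Each point is a gene, with the mean log2 signal of the 6 arrays on the horizontal axis and the log2 difference Silica-LPS minus LPS on the vertical axis, and dotted lines mark a 2-fold change. All 234 genes called higher (red) and 121 called lower (blue) lie inside the dotted lines, and called genes occur over most of the range of signals.

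Among the main cytokines of the LPS response, Il6, Il12b and Il1b overlapped between the groups, Tnf and Il10 did not overlap, and none of these genes passed the test. Il6, which encodes a cytokine of the acute phase, had log2 signals of 12.04, 12.02 and 12.15 in Silica-LPS, against 12.11, 12.13 and 11.98 in LPS. The groups overlapped, and the 95% confidence interval of the difference ran from -0.25 to 0.25. Il12b, which encodes a subunit shared by interleukins that drive T cells, had 10.01, 10.05 and 10.13 in Silica-LPS and 10.03, 10.20 and 10.01 in LPS, with an interval of -0.33 to 0.28. Il1b overlapped too (0.07 ± 0.0825, difference ± SE, interval -0.10 to 0.25). For Tnf, the gene of tumour necrosis factor, the arrays read 12.63, 12.56 and 12.59 in Silica-LPS against 12.37, 12.48 and 12.25 in LPS. All Silica-LPS arrays were the higher ones, and the difference of 0.23 ± 0.0845 (interval 0.05 to 0.41) did not pass after adjustment (adjusted p = 0.175). Il10, which encodes an anti-inflammatory cytokine, had 8.44, 8.37 and 8.44 in Silica-LPS and 8.78, 8.73 and 8.83 in LPS. Its arrays did not overlap either, and its difference was -0.37 ± 0.132. The adjusted p was 0.166 with the spread pooled over all groups and 0.0473 with that of the 6 arrays alone.

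Of 22 inflammatory cytokine genes, 2 fell and none rose, against 0.976% of all genes called lower and 1.89% called higher. The list's median was 0.00. The genes that fell were Lif, a cytokine of the interleukin-6 family, and Csf1, the growth factor on which macrophages depend. Lif had 7.75, 7.88 and 7.94 in Silica-LPS and 8.35, 8.33 and 8.40 in LPS, a fall of 1.42-fold (-0.50 ± 0.0731, adjusted p = 0.00163). Csf1 had 10.38, 10.46 and 10.47 in Silica-LPS against 10.77, 10.85 and 10.79 in LPS, a fall of 1.29-fold (-0.37 ± 0.0478, adjusted p = 0.000774). In both genes the groups were well apart. Ifnb1, which encodes interferon-β, overlapped between the groups (-0.05 ± 0.123, interval -0.31 to 0.21). So did Il1a (0.21 ± 0.158), Ptgs2, which encodes the inducible cyclooxygenase (-0.02 ± 0.0837), and Nos2, which encodes the inducible nitric oxide synthase (-0.08 ± 0.107). Acod1, whose enzyme makes itaconate, stood at 14.03, 14.04 and 14.03 in Silica-LPS and 14.05, 14.02 and 13.99 in LPS. The highest signals of the 6 arrays lay between 14.48 and 14.54, so differences of genes as bright as Acod1 may be understated.

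Chemokine genes showed more falls, with 6 of 22 lower and none higher in Silica-LPS, against 0.976% of all genes called lower. The list's median was -0.02. Ccl24, which attracts eosinophils, had 8.43, 8.20 and 8.08 in Silica-LPS and 8.85, 8.92 and 9.08 in LPS, a fall of 1.64-fold (-0.71 ± 0.0994, adjusted p = 0.00113). Ccl7 and Ccl12 are monocyte attractants whose genes LPS raises strongly. Ccl7 had 10.40, 10.45 and 10.46 in Silica-LPS against 11.05, 10.96 and 10.91 in LPS (-0.53 ± 0.0966, adjusted p = 0.00651). Ccl12 had 10.48, 10.49 and 10.54 in Silica-LPS and 10.91, 10.94 and 10.96 in LPS (-0.44 ± 0.109, adjusted p = 0.0435). Within each of these genes the arrays of a group lay close together and the groups were apart. Ppbp, a chemokine known from platelets, had 6.38, 6.54 and 6.19 in Silica-LPS and 7.05, 7.02 and 6.99 in LPS (-0.65 ± 0.129). Ccl6 (-0.31 ± 0.0428) and Pf4 (-0.19 ± 0.038) were the other members that fell. Outside the list, the chemokine genes Ccl8, Cxcl12 and Cxcl13 (-0.51) fell and Ccl20 rose (0.54 ± 0.127, adjusted p = 0.0336). Ccl20 lost its call without LPS array 2 or any 1 of the Silica-LPS arrays (adjusted p up to 0.148), and Cxcl13 without these or LPS array 3 (up to 0.179). Ccl8, a monocyte attractant, had 6.31, 6.25 and 6.32 in Silica-LPS against 7.48, 7.02 and 6.82 in LPS, a fall of 1.75-fold. The related attractant Ccl2 had 11.79, 11.61 and 11.87 in Silica-LPS and 12.13, 12.12 and 11.90 in LPS, a difference of -0.29 ± 0.0908 that did not pass (adjusted p = 0.104). Ccl5 (-0.02 ± 0.0583) and Cxcl10 (-0.02 ± 0.153) overlapped at 14.09 to 14.34, close to the upper end of the scale. The call of Ccl12 was lost whichever array was left out, that of Ppbp without Silica-LPS array 3 (adjusted p = 0.0642) and that of Pf4 without LPS array 2 (adjusted p = 0.0529).

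No gene of the interferon response passed in limma's test between Silica-LPS and LPS, out of 42, where 2.86% of all genes were called. An unadjusted p below 0.05 was found for 2 of the 42, beside 2077 of all 12393 genes. The count of called genes was also 0 in each of 13 other settings. The list's median was -0.02, and its extremes were Iigp1, an interferon-induced GTPase (-0.37), and Ifnar2, a subunit of the interferon receptor (0.07). Without LPS the same list differed: 12 of 42 genes were lower in Silica than in CON, none was higher, and the median was -0.20 (background of called genes 4.02%, lower 1.57%). Set directly against each other, the effects of silica with and without LPS passed limma's test for 0 of 42 genes, where 2 of 12393 passed. Of the 42 genes, 13 had an unadjusted p below 0.05, all of them higher with LPS, beside 6.80% of all genes. The median was 0.17. All 42 genes were higher in LPS than in CON (58.2% of all genes called, 22.2% higher).

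**Figure D2:**
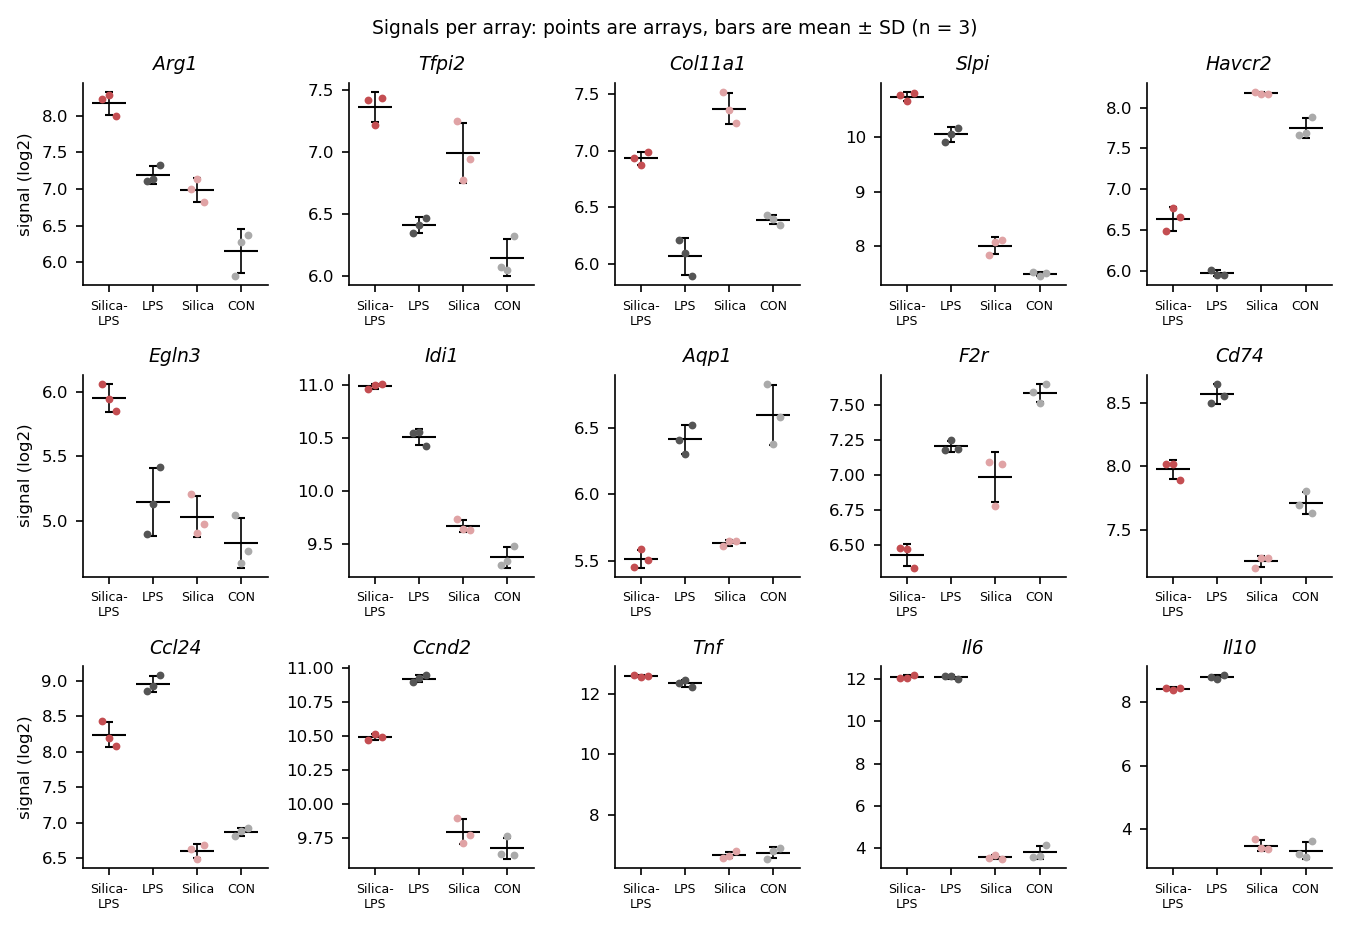
Log2 signals of 15 genes in every array of 4 groups. Points are arrays, horizontal bars are means and whiskers are SD (n = 3), and each panel has its own vertical scale, which does not start at 0. The Silica-LPS arrays of Arg1, Tfpi2, Col11a1, Slpi, Havcr2, Egln3 and Idi1 all lie above the LPS arrays, those of Aqp1, F2r, Cd74, Ccl24 and Ccnd2 all lie below them, and those of Il6 overlap with them.

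Genes of the receptor complex and its signalling held few called genes, where 1.89% of all genes were called higher and 0.976% lower. Of 14 genes of Toll-like receptor 4 and its adaptors, 1 fell. Tlr4 itself had 7.88, 7.87 and 7.79 in Silica-LPS and 7.90, 7.77 and 7.78 in LPS, and Cd14, its co-receptor, differed by 0.04 ± 0.0404. The gene that fell was Tlr1, a receptor for bacterial lipopeptides, at 9.73, 9.70 and 9.71 in Silica-LPS against 10.15, 10.05 and 9.86 in LPS (-0.31 ± 0.0619, adjusted p = 0.0124). Of 14 NF-kB genes, 1 rose. This was Tnfaip3, which encodes A20, an inhibitor of NF-kB signalling, with 7.79, 7.71 and 8.16 in Silica-LPS and 7.42, 7.19 and 7.39 in LPS (0.55 ± 0.12, adjusted p = 0.0205). The groups did not overlap, and Silica-LPS array 3 was the highest. Among 19 MAP kinase and AP-1 genes, the transcription factor gene Egr1 (-0.38 ± 0.0656) and the phosphatase gene Dusp1 (-0.26 ± 0.0525) fell and none rose. Among 20 feedback inhibitors, Socs2 (-0.33 ± 0.0507) and Trib1 (-0.33 ± 0.0707) fell and none rose. Of 23 receptors for chemokines and growth factors 1 rose, the chemokine receptor gene Cxcr4, with 5.74, 5.82 and 5.80 in Silica-LPS and 5.36, 5.16 and 5.48 in LPS (0.45 ± 0.0737). Without LPS array 2 the calls of Tlr1, Tnfaip3, Dusp1 and Trib1 were lost. Tlr1 and Tnfaip3 also lost theirs without Silica-LPS array 3, Dusp1 without Silica-LPS array 1, and Trib1 without LPS array 3 or Silica-LPS array 1 or 3, with adjusted p up to 0.0605, 0.0983, 0.0627 and 0.0898.

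The 15 largest rises included Arg1, the protease inhibitor genes Tfpi2, Slpi and Ctla2a, and Havcr2. Arg1 had 8.24, 8.28 and 8.0 in Silica-LPS and 7.11, 7.14 and 7.33 in LPS (0.98 ± 0.191, adjusted p = 0.00998). Arg2, which encodes the mitochondrial arginase, had 7.62, 7.67 and 7.70 in Silica-LPS and 7.08, 7.06 and 7.32 in LPS (0.51 ± 0.0887, adjusted p = 0.00533). In both genes every Silica-LPS array was above every LPS array. They were the called genes among 9 of arginine and itaconate metabolism, where none fell, against 1.89% of all genes called higher. Tfpi2, a secreted inhibitor of serine proteases, had 7.42, 7.22 and 7.44 in Silica-LPS against 6.34, 6.41 and 6.47 in LPS, a rise of 1.94-fold (0.95 ± 0.11, adjusted p = 0.000352). Slpi, an inhibitor of neutrophil proteases that macrophages make after LPS, had 10.76, 10.65 and 10.81 in Silica-LPS and 9.91, 10.06 and 10.17 in LPS (0.69 ± 0.0826, adjusted p = 0.000416). Ctla2a, an inhibitor of cysteine proteases, had 9.88, 9.84 and 9.94 in Silica-LPS and 9.34, 9.33 and 9.12 in LPS (0.62 ± 0.061, adjusted p = 0.00012). These inhibitors stood apart without overlap, and Tfpi2, Slpi and Ctla2a kept their calls in all 14 alternatives.

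Havcr2, which encodes the inhibitory receptor TIM-3, had 6.48, 6.77 and 6.66 in Silica-LPS and 6.01, 5.95 and 5.95 in LPS, a rise of 1.59-fold (0.67 ± 0.0651, adjusted p = 0.00012). Kcnk1, which encodes a potassium channel, had 5.37, 5.36 and 5.18 in Silica-LPS and 4.66, 4.75 and 4.58 in LPS (0.64 ± 0.0943). A second probe set of Kcnk1 differed by only 0.07. Apoc2, the protein cofactor of lipoprotein lipase, rose by 1.52-fold (0.61 ± 0.0634), with 8.99, 9.14 and 9.12 in Silica-LPS against 8.35, 8.54 and 8.53 in LPS. Adam12, a membrane metalloprotease, rose by 1.53-fold (0.62 ± 0.0787) and Nrep, named for neuronal regeneration, by 1.62-fold (0.69 ± 0.0957). Fibin had 7.47, 6.99 and 6.85 in Silica-LPS and 6.14, 6.18 and 6.26 in LPS (0.91 ± 0.164), with Silica-LPS array 1 above the other two. Ang, which encodes a secreted ribonuclease, had 6.49, 6.32 and 7.05 in Silica-LPS against 6.11, 5.79 and 5.84 in LPS (0.71 ± 0.156), with Silica-LPS array 3 well above the other two. Fahd1 (0.62 ± 0.123) and U90926 (0.62 ± 0.133) completed the 15 largest rises together with Egln3 and Col11a1, described below. Calls were lost for Ang without LPS array 2 or 3 or Silica-LPS array 3 (adjusted p up to 0.0969), for Fahd1 without LPS array 2 or Silica-LPS array 2 (up to 0.0649), and for U90926 without LPS array 1 or 2 or Silica-LPS array 1 or 3 (up to 0.0784).

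The 15 largest falls included Aqp1, Mgp, the chemokine genes Ccl8, Ccl24 and Ppbp, F2r and Pdk4. Aqp1 had 5.46, 5.59 and 5.51 in Silica-LPS and 6.41, 6.30 and 6.52 in LPS (-0.89 ± 0.108, adjusted p = 0.00044). F2r, which encodes a thrombin receptor, had 6.48, 6.47 and 6.34 in Silica-LPS against 7.18, 7.25 and 7.19 in LPS, a fall of 1.71-fold (-0.78 ± 0.0819, adjusted p = 0.000198). Pdk4, a kinase that shuts down the oxidation of pyruvate, had 5.32, 5.07 and 5.22 in Silica-LPS and 6.01, 5.86 and 5.90 in LPS (-0.72 ± 0.127). The arrays of each of these genes were clearly separated by group. Fgl2, which encodes a prothrombinase of activated macrophages, had 7.90, 7.92 and 8.16 in Silica-LPS and 8.75, 8.93 and 8.32 in LPS (-0.67 ± 0.158, adjusted p = 0.0302). LPS array 3 was close to the Silica-LPS arrays, and the call of Fgl2 from this probe set was lost without LPS array 1 or 2 or Silica-LPS array 1 or 2 (adjusted p up to 0.137). The other probe set of Fgl2, which was dimmer on average, fell more (-1.0 ± 0.118, adjusted p = 0.000514 over all probe sets). Adgre4, a surface receptor of the F4/80 family, had 8.83, 8.63 and 8.59 in Silica-LPS against 9.37, 9.20 and 9.29 in LPS (-0.60 ± 0.103). Mcpt8, a protease of basophils, lay at the dim end, with 4.83, 4.72 and 4.59 in Silica-LPS and 5.08, 5.52 and 5.52 in LPS (-0.65 ± 0.121). The other 7 mast cell and basophil markers did not pass.

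In the list of MHC class II and costimulation, 4 of 14 genes fell and none rose, against 0.976% of all genes called lower. All 4 encode class II chains or the invariant chain. Cd74, the invariant chain that guides class II molecules to the endosome, had 8.02, 8.02 and 7.89 in Silica-LPS and 8.50, 8.65 and 8.56 in LPS, a fall of 1.51-fold (-0.59 ± 0.0657, adjusted p = 0.000277). H2-Aa, a class II α chain, had 9.43, 9.41 and 9.41 in Silica-LPS against 9.88, 10.06 and 9.92 in LPS (-0.53 ± 0.0813, adjusted p = 0.00208). The β chain genes H2-Eb1 (-0.44 ± 0.0815) and H2-Ab1 (-0.42 ± 0.0892) fell too. In all 4 genes the groups were apart, while H2-Ab1 lost its call without LPS array 2 or 3 or Silica-LPS array 1 or 3 (adjusted p up to 0.0827). The median of the list was -0.11. Ciita, the master activator of class II genes (-0.31 ± 0.158, adjusted p = 0.341), and H2-DMa, a chain of the peptide loader (-0.16 ± 0.0917, adjusted p = 0.397), did not pass. Cd86, a costimulatory ligand for T cells, differed by -0.06 ± 0.0568 and did not pass. In a bulk sample, fewer cells of a type and less RNA per cell cannot be told apart. The 8 dendritic cell markers summed to log2 signals of 7.96 to 8.0 in Silica-LPS and 8.07 to 8.18 in LPS, none passed (none at an unadjusted p below 0.05 in limma), and Zbtb46, Xcr1, Cd209a, Ccr7, Dpp4 and Batf3 had means under 5 in Silica-LPS, all but Batf3 also in LPS. Of all 12393 genes, 2077 had an unadjusted p below 0.05. The part of the dendritic cell markers in the class II result was not tested.

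Alternative activation, the state of macrophages under interleukin 4, gave a mixed picture in which 5 of 24 genes fell, 2 rose and the median was -0.11. Among all genes, 0.976% were called lower and 1.89% higher. Mrc1, the mannose receptor, had 10.24, 10.18 and 10.17 in Silica-LPS and 10.68, 10.59 and 10.74 in LPS, a fall of 1.39-fold (-0.47 ± 0.0579, adjusted p = 0.000444). Clec10a, a lectin for galactose residues, had 6.10, 5.74 and 5.53 in Silica-LPS and 6.34, 6.39 and 6.60 in LPS (-0.65 ± 0.119, adjusted p = 0.00668). Ccl24, Socs2 and the interleukin 4 receptor gene Il4ra (-0.26 ± 0.0481) were the other falls, and Arg1 and Plaur, the urokinase receptor (0.19 ± 0.045), the rises. The call of Plaur was lost whichever array was left out. Of 32 scavenger and phagocytic receptors and their ligands, Mrc1 and Cd5l fell and none rose. Cd5l, a secreted scavenger protein of macrophages, had 6.47, 6.24 and 6.29 in Silica-LPS and 7.02, 6.96 and 6.92 in LPS, a fall of 1.55-fold (-0.63 ± 0.0883). Receptors known to bind silica did not pass. Marco stood 0.16 ± 0.0753 higher in Silica-LPS (adjusted p = 0.298), and Msr1 differed by -0.04 ± 0.0429 (interval -0.13 to 0.05).

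Cholesterol synthesis was the list with the largest share of called genes, 11 of 19, all higher in Silica-LPS, against 1.89% of all genes. Its median was 0.35, and every one of the 19 genes had a positive difference. Idi1, which isomerises the building block of sterols, had 10.96, 10.99 and 11.01 in Silica-LPS and 10.55, 10.56 and 10.42 in LPS, a rise of 1.39-fold (0.48 ± 0.0599, adjusted p = 0.000541). Msmo1, which removes methyl groups from the sterol ring, had 10.12, 10.10 and 10.11 in Silica-LPS against 9.74, 9.57 and 9.56 in LPS (0.49 ± 0.0587, adjusted p = 0.000416). Mvd, the last enzyme of the mevalonate part of the pathway, had 6.60, 6.82 and 6.50 in Silica-LPS and 6.33, 5.88 and 6.21 in LPS (0.50 ± 0.11, adjusted p = 0.0218). Within Idi1 and Msmo1 the arrays of a group were tightly grouped, while those of Mvd spread widely without overlapping. Fdft1, which makes squalene, rose by 1.38-fold (0.46 ± 0.0527), although 1 of its other 3 probe sets differed by -0.14. The remaining called genes are named after their values were seen. Hmgcs1, which makes the precursor of mevalonate, had 11.89, 11.90 and 11.88 in Silica-LPS and 11.49, 11.48 and 11.46 in LPS, a difference of 0.41 ± 0.0409 (adjusted p = 0.00012). Fdps (0.43), Sqle (0.42) and Cyp51 (0.42) act in the middle of the pathway, Sc5d (0.35) and Nsdhl (0.24) near its end, and Stard4 (0.39) carries sterol between membranes. Srebf2, the gene of SREBP2, differed by 0.17 ± 0.0535 and did not pass (adjusted p = 0.114). Calls were lost for Mvd and Sc5d without LPS array 2 or Silica-LPS array 1 or 2 (adjusted p up to 0.105 and 0.0775), and for Nsdhl without LPS array 1 or any 1 of the Silica-LPS arrays (up to 0.0642). Over 13 other settings, between 6 and 12 genes of the list were called higher. Without LPS, 6 of the 19 genes were higher in Silica than in CON, against 2.45% of all genes. None was lower and the median was 0.17. The difference of the silica effects with and without LPS passed for 0 of the 19 in limma's test. An unadjusted p below 0.05 was found for 7, all higher with LPS, beside 6.80% of all genes.

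The starts of the genes of this list, called or not, share a short sequence. The letters CCAAT, read on either strand, are the site of NF-Y, a factor known to act beside SREBP2 at sterol genes. They were present between 250 bases before and 50 bases after a start in all 15 genes of the list with a RefSeq promoter (build GRCm38.p6), against 42.3% of the 9887 measured genes with one. The sterol element, searched as CACNCCAC on either strand, was present in 1 of 15, Hmgcs1 (6.67%), against 7.79%. Of the 184 genes called higher that had a promoter, 44.6% held CCAAT. The matches describe the list, and their link to the silica effect was not tested. A match is a description of these letters and not a shown site of binding, and both motifs were chosen after the values were seen. The promoters of Hmgcs1 (chr13:119690101-119690400, plus strand), Idi1 (chr13:8885356-8885655, plus strand) and Msmo1 (chr8:64733529-64733828, minus strand) are shown because these genes had small spread and rose in all settings tried or, for Hmgcs1, whichever array was left out. Capitals mark CCAAT or its reverse complement, which occurs 4, 2 and 3 times.
Hmgcs1: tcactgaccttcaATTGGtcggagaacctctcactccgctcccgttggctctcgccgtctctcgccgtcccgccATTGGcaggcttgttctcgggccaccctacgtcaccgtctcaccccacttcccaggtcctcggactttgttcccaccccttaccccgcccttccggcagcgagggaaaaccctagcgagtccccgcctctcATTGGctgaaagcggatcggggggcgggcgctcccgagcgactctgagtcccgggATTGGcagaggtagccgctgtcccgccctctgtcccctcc
Idi1: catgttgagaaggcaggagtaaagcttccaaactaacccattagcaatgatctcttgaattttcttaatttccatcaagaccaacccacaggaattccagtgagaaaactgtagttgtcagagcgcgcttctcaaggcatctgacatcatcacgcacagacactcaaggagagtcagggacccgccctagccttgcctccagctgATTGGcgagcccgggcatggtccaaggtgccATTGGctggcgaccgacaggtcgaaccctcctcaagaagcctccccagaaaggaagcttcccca
Msmo1: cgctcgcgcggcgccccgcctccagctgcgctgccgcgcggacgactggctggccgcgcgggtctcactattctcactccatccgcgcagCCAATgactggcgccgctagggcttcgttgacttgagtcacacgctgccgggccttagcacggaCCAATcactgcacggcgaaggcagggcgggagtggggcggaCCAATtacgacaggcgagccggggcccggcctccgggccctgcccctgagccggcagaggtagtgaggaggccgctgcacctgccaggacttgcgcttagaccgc

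Glycolysis and the response to low oxygen formed a further list with calls in 1 direction. Of 23 genes, 8 were higher in Silica-LPS, against 1.89% of all genes, and none lower, with a median of 0.14. Egln3, a prolyl hydroxylase that marks the hypoxia factor HIF for destruction and is itself a HIF target, had 6.06, 5.94 and 5.85 in Silica-LPS and 4.90, 5.13 and 5.42 in LPS, a rise of 1.75-fold (0.81 ± 0.135, adjusted p = 0.00434). Bnip3, a mitochondrial HIF target, had 10.38, 10.31 and 10.24 in Silica-LPS against 9.89, 9.80 and 10.05 in LPS (0.40 ± 0.0615, adjusted p = 0.00234). Egln1, a second HIF hydroxylase, had 8.37, 8.42 and 8.34 in Silica-LPS and 8.0, 7.96 and 8.11 in LPS (0.35 ± 0.0592). In all of these genes the groups did not overlap, and LPS array 3 was the highest of its group. Ero1a, an oxidase of the endoplasmic reticulum, rose by 1.22-fold (0.29 ± 0.0546). The glycolytic genes Pgam1 (0.21), Pgk1 (0.18) and Aldoa (0.17) and the glucose transporter gene Slc2a1 (0.19) rose less. Vegfa, a growth factor for vessels (-0.13), and Hif1a (0.14) did not pass. The list depended on the setting more than cholesterol synthesis did: 5 to 7 of its genes were called when 1 array was left out and none when the spread came from the 6 arrays alone. Aldoa lost its call whichever array was left out, Slc2a1 without LPS array 2 or 3 or Silica-LPS array 1 or 3 (adjusted p up to 0.147), and Pgk1 without LPS array 1 or Silica-LPS array 1 (up to 0.0547).

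The core of the site that HIF is known to bind was searched as ACGTG on either strand and chosen after the values were seen. It was present in 18 of the 22 genes of this list with a promoter (81.8%), against 26.9% of measured genes. Among the 184 genes called higher with a promoter the share was 36.4%. Uncalled genes of the list, such as Ldha and Hif1a, held matches too, and a link to the silica effect was not tested. Egln3 (chr12:54203825-54204124, minus strand) and Bnip3 (chr7:138909457-138909756, minus strand) are shown because they rose the most. Capitals mark ACGTG or its reverse complement. Egln3 holds 1 match, and in Bnip3 a match on each strand overlaps to give the 6 letters in capitals.
Egln3: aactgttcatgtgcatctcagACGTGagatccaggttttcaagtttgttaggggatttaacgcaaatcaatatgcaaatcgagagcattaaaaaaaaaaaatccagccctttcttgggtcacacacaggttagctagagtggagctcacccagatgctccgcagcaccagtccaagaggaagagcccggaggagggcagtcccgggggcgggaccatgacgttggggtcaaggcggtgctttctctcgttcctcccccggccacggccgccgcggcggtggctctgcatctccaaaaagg
Bnip3: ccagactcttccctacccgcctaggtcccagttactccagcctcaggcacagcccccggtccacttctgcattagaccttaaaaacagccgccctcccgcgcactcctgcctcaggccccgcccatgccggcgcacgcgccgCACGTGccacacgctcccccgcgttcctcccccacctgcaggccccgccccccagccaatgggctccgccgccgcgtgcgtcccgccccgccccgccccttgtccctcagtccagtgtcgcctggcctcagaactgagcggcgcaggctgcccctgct

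**Figure D3:**
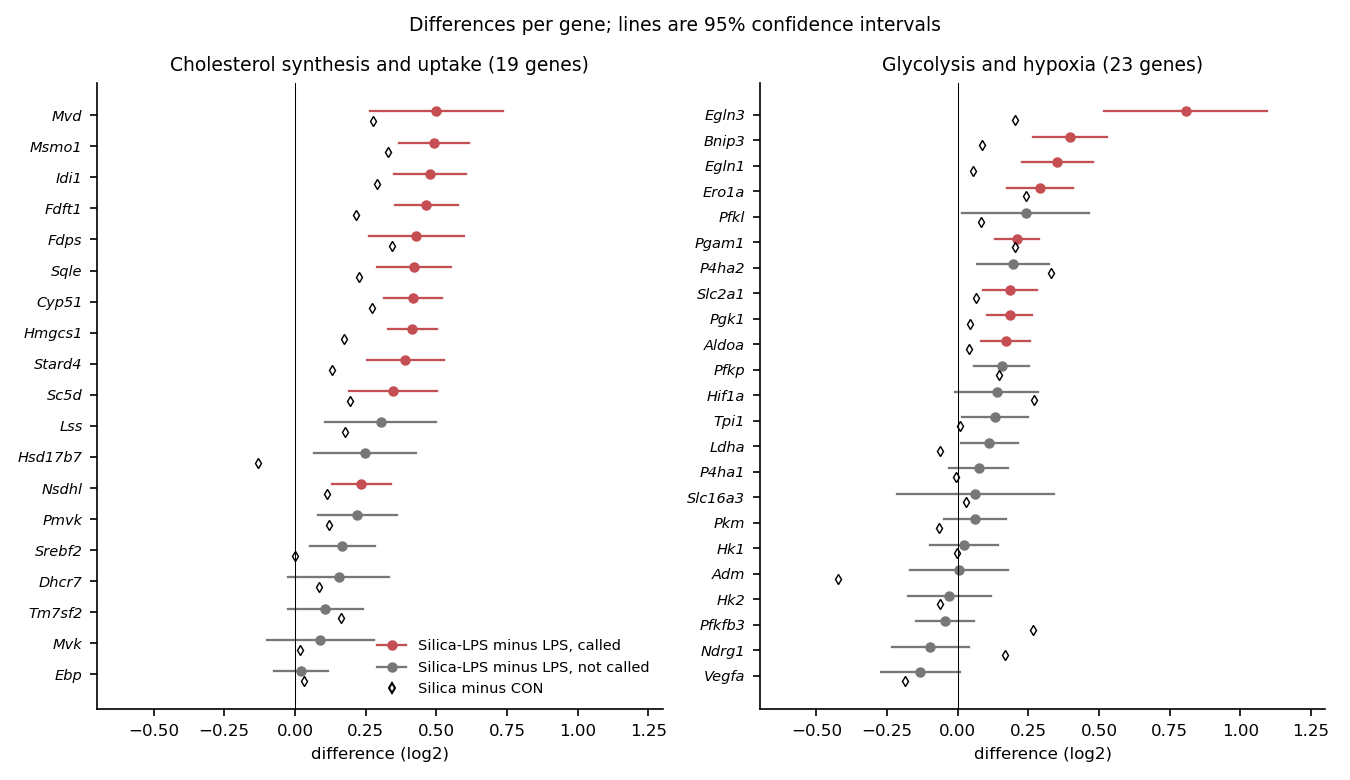
Differences of all measured genes of cholesterol synthesis and uptake (left, 19 genes) and of glycolysis and hypoxia (right, 23 genes). Circles are Silica-LPS minus LPS on the log2 scale with 95% confidence intervals, red where called, and open diamonds are Silica minus CON. All circles in the left panel lie to the right of 0, from 0.02 for Ebp to 0.50 for Mvd, while those in the right panel run from -0.13 for Vegfa to 0.81 for Egln3.

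Of 40 lysosome genes 6 rose and none fell, against 1.89% of all genes called higher. Differences were positive for 34 of the 40, against 51.5% of all genes, with a median of 0.09. The 51.5% is not matched for level. All genes with signals of 8 to 10 had a median of 0.04, and those of 10 to 12 one of 0.03. Npc1, which exports cholesterol from the lysosome, had 9.44, 9.44 and 9.39 in Silica-LPS and 9.04, 9.07 and 9.16 in LPS, a rise of 1.26-fold (0.33 ± 0.0584, adjusted p = 0.00565). Ctsh, a cathepsin, had 11.37, 11.39 and 11.40 in Silica-LPS against 11.13, 11.14 and 11.17 in LPS (0.24 ± 0.0363, adjusted p = 0.00188). Both genes were separated by group with little spread. The proteases Ctsk (0.28 ± 0.0679) and Ctsd (0.19 ± 0.0367) and the glycosidases Galc (0.20 ± 0.0432) and Gusb (0.16 ± 0.036) rose as well, though 1 other probe set of Galc differed by -0.07. Calls were lost for Ctsk and Galc without LPS array 2 or any 1 of the Silica-LPS arrays (adjusted p up to 0.14 and 0.0873) and for Gusb in all cases but that of LPS array 3 (up to 0.119). Over 13 other settings, 0 to 14 lysosome genes were called, with none when the spread came from the 6 arrays alone. Of 16 autophagy genes 2 rose. Sqstm1, the cargo adaptor p62, had 11.89, 11.83 and 11.85 in Silica-LPS and 11.51, 11.55 and 11.58 in LPS (0.31 ± 0.0453, adjusted p = 0.0017). The other was the cargo adaptor gene Nbr1 (0.20 ± 0.0468), whose call was lost without LPS array 2 or any 1 of the Silica-LPS arrays (adjusted p up to 0.119).

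The antioxidant genes under NRF2 had 4 of 27 higher, against 1.89% of all genes, none lower and a median of 0.09. Gsta3, a glutathione transferase, had 7.08, 6.92 and 7.18 in Silica-LPS and 6.34, 6.60 and 6.44 in LPS, a rise of 1.51-fold (0.60 ± 0.104, adjusted p = 0.00516). Srxn1, which restores peroxiredoxins, had 10.17, 10.09 and 10.08 in Silica-LPS against 9.72, 9.78 and 9.80 in LPS (0.34 ± 0.0657, adjusted p = 0.00878). Gpx1, a glutathione peroxidase (0.24 ± 0.0432), and Cbr3, a carbonyl reductase (0.21 ± 0.0546), were the others, and Cbr3 lost its call whichever array was left out. Over 13 other settings, 0 to 9 genes of the list were called higher, with none when the spread came from the 6 arrays alone. Hmox1, which degrades haem, had 11.34, 11.24 and 11.23 in Silica-LPS and 11.03, 11.09 and 11.19 in LPS, and its difference of 0.17 ± 0.0726 did not pass (adjusted p = 0.264). Sod2, the mitochondrial superoxide dismutase, differed by 0.03 ± 0.0445. Among 26 genes of ATF4 and amino acid stress, 3 rose and none fell. They were Cth, which makes cysteine (0.52 ± 0.133), Gpt2, a mitochondrial alanine transaminase (0.49 ± 0.0729), and Vldlr, a lipoprotein receptor (0.38 ± 0.084), of which Gpt2 alone kept its call whichever array was left out. Cth and Vldlr lost theirs without LPS array 2 or Silica-LPS array 1 or 3, Cth also without Silica-LPS array 2 and Vldlr also without LPS array 3 (adjusted p up to 0.176 and 0.11). Of 22 iron genes 1 rose, the mitochondrial iron importer Slc25a37 (0.23 ± 0.0567, lost in 5 of 6 cases with 1 array left out).

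Lipid genes outside synthesis did not move one way. Among 24 targets and receptors of LXR and PPAR, Pdk4 and Lpl fell and Scd2 rose, where 0.976% of all genes were called lower and 1.89% higher. Lpl, the lipoprotein lipase that Apoc2 activates, had 11.99, 11.95 and 11.74 in Silica-LPS and 12.18, 12.31 and 12.36 in LPS, a fall of 1.32-fold (-0.40 ± 0.0836, adjusted p = 0.0166). Its call was lost without LPS array 2 or 3 or Silica-LPS array 3 (adjusted p up to 0.0848). Scd2, a fatty acid desaturase, had 8.50, 8.46 and 8.53 in Silica-LPS against 8.18, 8.04 and 8.26 in LPS (0.33 ± 0.0585), while another of its probe sets differed by -0.06. Ch25h, whose enzyme makes an oxysterol that suppresses sterol synthesis, had 11.97, 11.95 and 12.03 in Silica-LPS and 12.21, 12.36 and 12.16 in LPS, a difference of -0.27 ± 0.0766 that did not pass (adjusted p = 0.0815). Of 13 prostaglandin and leukotriene genes 1 fell, Hpgds (-0.24 ± 0.0583), which was lost whichever array was left out.

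Of 41 cell cycle genes 3 fell and none rose, against 0.976% of all genes called lower. Differences were negative for 38 of the 41, while 51.5% of all genes had a positive one, and the median was -0.16. Ccnd2, a cyclin of the first phase of the cycle, had 10.47, 10.51 and 10.49 in Silica-LPS and 10.89, 10.92 and 10.94 in LPS, a fall of 1.35-fold (-0.43 ± 0.0583, adjusted p = 0.00111). Rrm2, a subunit of ribonucleotide reductase, had 9.38, 9.35 and 9.31 in Silica-LPS against 9.70, 9.70 and 9.74 in LPS (-0.37 ± 0.0509, adjusted p = 0.00111). Ccnd1, a related cyclin, had 7.83, 7.92 and 7.90 in Silica-LPS and 8.15, 8.21 and 8.28 in LPS (-0.33 ± 0.0555, adjusted p = 0.00434). The groups were far apart relative to their spread in all of them. At an unadjusted p below 0.05, 21 of the 41 genes were lower and none higher, beside 2077 of all 12393 genes in either direction. After cyclic loess scaling between arrays 8 were called lower.

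Collagen and matrix genes included 5 rises among 32 and no fall, against 1.89% of all genes called higher. Col11a1 had 6.93, 6.87 and 6.99 in Silica-LPS and 6.22, 6.10 and 5.90 in LPS, a rise of 1.82-fold (0.86 ± 0.0948, adjusted p = 0.000277). Col5a3 had 8.40, 8.26 and 8.40 in Silica-LPS against 7.74, 7.83 and 7.90 in LPS (0.53 ± 0.072, adjusted p = 0.00109), but its other probe set differed by -0.02. Col5a1 (0.28 ± 0.0462) and Col3a1 (0.27 ± 0.0502), which encode chains of fibrillar collagens, and Plaur rose less. Outside the list, Col2a1, the collagen of cartilage, fell by 1.52-fold (-0.61 ± 0.1), with 6.47, 6.41 and 6.43 in Silica-LPS and 7.01, 6.88 and 7.24 in LPS. Nid2, a protein of basement membranes, fell by 1.48-fold (-0.56 ± 0.106). Of 14 fibroblast and stroma markers, Col3a1 and Postn (0.28 ± 0.0477) rose, and Mgp and Cxcl12 (-0.24 ± 0.0449) fell. Mgp, an inhibitor of calcification, had 7.70, 7.92 and 7.92 in Silica-LPS and 8.71, 8.47 and 8.90 in LPS, a fall of 1.79-fold (-0.84 ± 0.102, adjusted p = 0.00044). The markers thus moved both ways with a median of -0.05, and their part in the collagen result was not tested.

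Of the remaining lists, those of the inflammasome and cell death (20 genes), metallothioneins and zinc (7), endoplasmic reticulum chaperones (20), heat shock proteins (16), p53 targets and cell cycle inhibitors (23) and myeloid transcription factors (19) held no called gene in limma's test. Their counts at an unadjusted p below 0.05 were 3, 2, 2, 1, 5 and 2, beside 2077 of all 12393 genes. At the share of all genes called, 2.86%, lists of this size can hold no called gene. Nlrp3, the sensor of the inflammasome that particles activate, had 11.22, 11.20 and 11.15 in Silica-LPS and 11.15, 10.95 and 10.84 in LPS, and its difference of 0.21 ± 0.109 did not pass (adjusted p = 0.35). Of 12 transport genes, Kcnk1 rose and Aqp1 fell. The neutrophil (14), erythroid (6) and T and NK cell (7) markers held no called gene either, with 2, 2 and 0 at an unadjusted p below 0.05. Among the others, Blnk rose in the B cell list (0.20 ± 0.0469, not called without LPS array 1 or 2 or any 1 of the Silica-LPS arrays, adjusted p up to 0.135). Ctsk rose in the osteoclast list and Ppbp and Pf4 fell in that of megakaryocytes and platelets.

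**Figure D4:**
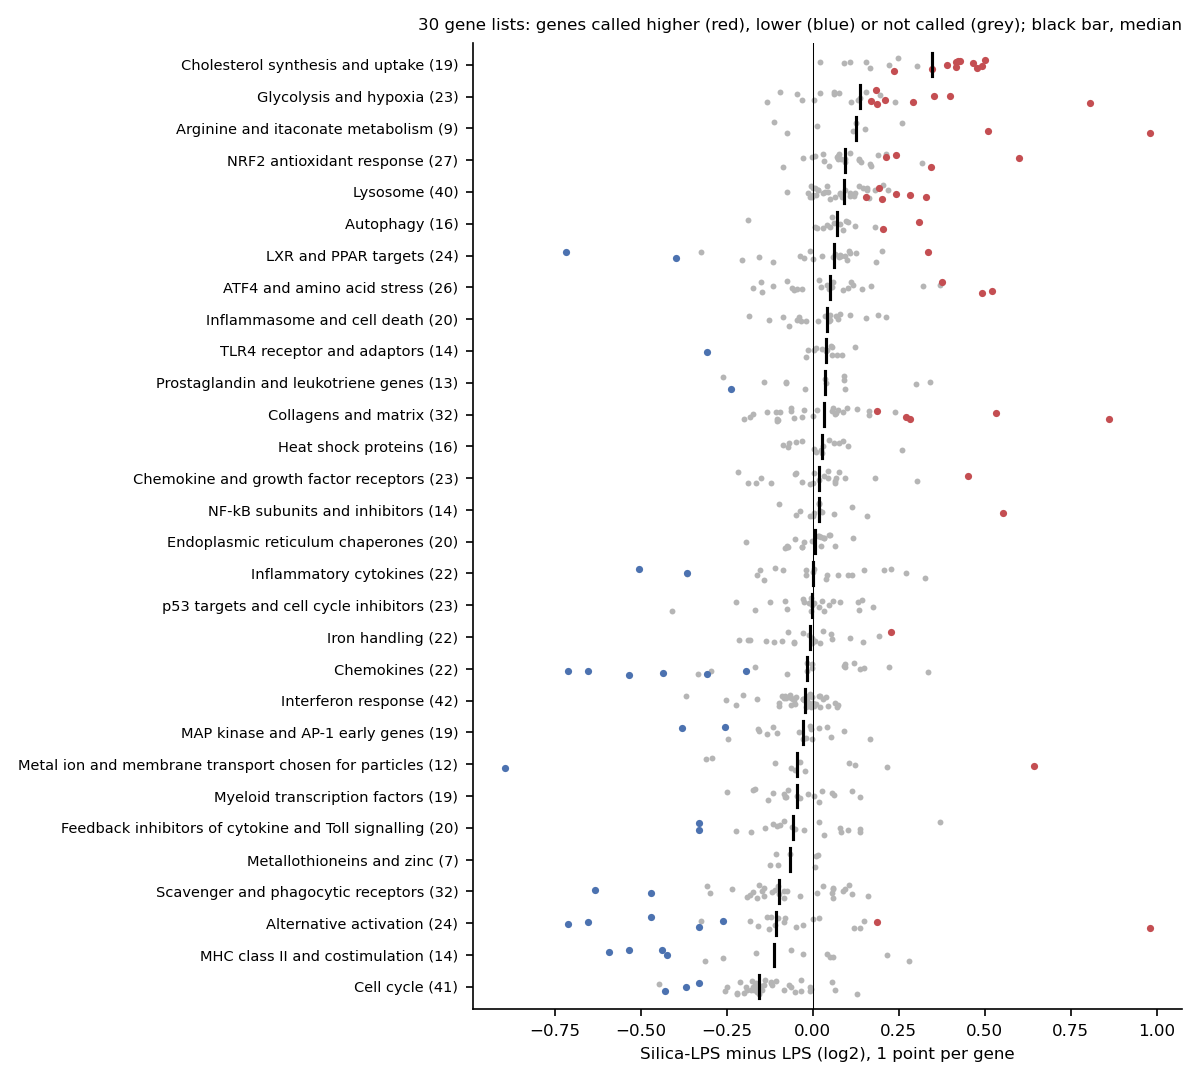
Differences of all measured genes in 30 lists. Each point is a gene at its log2 difference Silica-LPS minus LPS, red where called higher, blue where called lower and grey where not called. Black bars are list medians, and numbers in brackets are genes measured. Cholesterol synthesis stands at the top with a median of 0.35 and 11 red points of 19, and the cell cycle at the bottom with a median of -0.16 and 3 blue points of 41.

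The same particle without LPS was compared in Silica and CON, which share no array with Silica-LPS and LPS. The label of CON gives no times and no second step. Silica minus CON may therefore hold differences in handling, which cannot be told apart from silica. Of the 355 genes called with LPS, 140 were also called without it (498 genes, 4.02%, with 2.45% higher and 1.57% lower, a split that turned to 164 higher and 217 lower without Silica array 1), 87 higher and 53 lower in both, and none in opposite directions. The overlap was 39.4% of the genes called with LPS and 28.1% of those called without. Of the 355 genes, 321 had the same sign in Silica minus CON. The share of all genes with the same sign was not counted, so 321 has no background beside it. Across all 12393 genes, the differences correlated at r = 0.47, and genes are not independent replicates. Among genes called higher with LPS the median was 0.30 with LPS and 0.17 without, and among those called lower it was -0.33 and -0.21. These genes were selected by their differences with LPS, which favours larger values there. The medians therefore cannot show whether silica acted more strongly with LPS. Arg1, Tfpi2, Col11a1 and Adam12 were higher by 0.98, 0.95, 0.86 and 0.62 with LPS and by 0.84, 0.84, 0.97 and 0.59 without. Aqp1, Mgp, Cd74 and Mrc1 fell by 0.89, 0.84, 0.59 and 0.47 with LPS and by 0.96, 0.70, 0.46 and 0.42 without. The hypoxia genes Egln3, Bnip3 and Egln1 rose with LPS but stood at 0.20, 0.09 and 0.05 in Silica minus CON (adjusted p = 0.47, 0.514 and 0.689). The interactions of these genes, 0.60, 0.31 and 0.30, did not pass (adjusted p = 0.482, 0.381 and 0.391). Other members of their list were called without LPS. Of the 23 genes of glycolysis and hypoxia, 5 were higher and 1 lower in Silica than in CON, with a median of 0.05.

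The difference of the silica effects with and without LPS was itself tested for every gene. Any difference in handling between Silica and CON enters this test too. The interaction passed for 2 of 12393 genes (0.0161%), and 843 genes (6.80%) had an unadjusted p below 0.05. Ccnd2 had 9.89, 9.71 and 9.77 in Silica and 9.63, 9.76 and 9.62 in CON, where silica made no called difference (0.12 ± 0.0583, adjusted p = 0.293). Its effect was lower with LPS by 0.55 ± 0.0824 (adjusted p = 0.0452). Plpp3, an enzyme that removes phosphate from lipid messengers, had 10.24, 10.18 and 10.20 in Silica-LPS against 10.15, 10.11 and 10.10 in LPS. It was lower in Silica than in CON (-0.35 ± 0.0455, adjusted p = 0.000551) and not called with LPS (0.09 ± 0.0455, adjusted p = 0.361), an interaction of 0.44 ± 0.0644 (adjusted p = 0.0452). Both adjusted p lay just inside the threshold. No gene passed in 10 of 12 fits with 1 array left out, and none with the replicate number as a block, with every probe set on its own or with the compared groups alone.

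**Figure D5:**
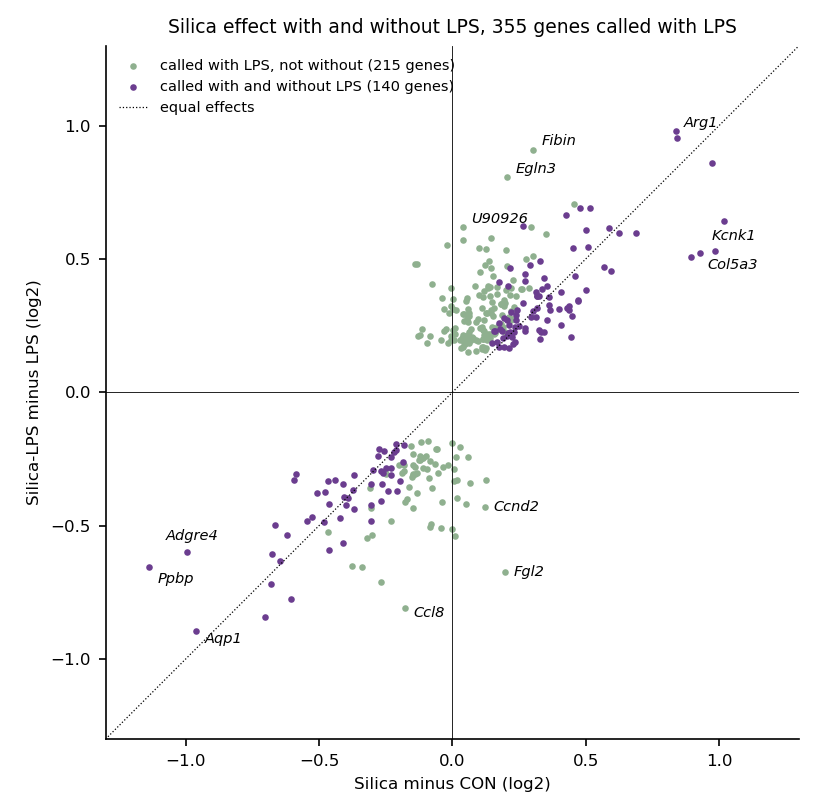
Silica effect with LPS (vertical axis, Silica-LPS minus LPS, log2) against that without LPS (horizontal axis, Silica minus CON, log2) for the 355 genes called with LPS. Purple points were called in both comparisons (140 genes), green points with LPS alone (215 genes), and the dotted line marks equal effects. All purple points lie at the lower left or upper right, and Ccnd2 and Fgl2 lie in the lower right.

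Iron oxide before LPS was the other particle treatment, set against the same 3 LPS arrays, so the particles were compared directly. Silica-LPS differed from SPIO-LPS in 3113 genes (25.1%), 1599 higher (12.9%) and 1514 lower (12.2%) in Silica-LPS. Iron oxide moved 4058 genes against LPS (32.7%), where silica moved 355. The genes that stood highest in Silica-LPS over SPIO-LPS were Ccr2, the receptor of Ccl2 (1.69), Adgre4 (1.65), Arg1 (1.63), Il10 (1.60) and Ch25h (1.58). Arg1 had 6.76, 6.54 and 6.31 in SPIO-LPS, below the LPS arrays, while silica raised it. The genes that stood lowest were Slc40a1, the iron exporter ferroportin (-2.88), Bex1 (-2.34), Vwf (-2.18), Rabgap1l (-2.05) and Afp (-2.02). None of these 5 was called in Silica-LPS against LPS, where Slc40a1 differed by -0.09 ± 0.0945. Among cholesterol genes 16 of 19 were lower in Silica-LPS than in SPIO-LPS and none higher, with a median of -0.34. Of 27 NRF2 genes, 22 were lower and 2 higher in Silica-LPS than in SPIO-LPS, and Srxn1 stood at 0.34 after silica and 2.31 after iron oxide against LPS. Slpi stood at 0.69 and 2.24, Gsta3 at 0.60 and 2.42 and Sqstm1 at 0.31 and 1.70, each of them lower in Silica-LPS than in SPIO-LPS (adjusted p = 2.28e-09, 4.66e-09 and 1.4e-11).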

How the data were processed

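The 18 Affymetrix arrays hold RNA of mouse macrophages in 6 groups of 3. The deposited values are log2 signals of 22690 probe sets. The submitters' processing notes name RMA, which corrects background, scales arrays to 1 distribution and summarises probes; its software and version were not given in the sources used here. No depth applies to arrays, and the precision is limited by 3 arrays per group. Control probe sets (64) and those with several gene symbols (691) or none (1555) were left out. Each of the 12393 genes was represented by the probe set with the highest mean over the 18 arrays. Symbols were updated through gene identifiers for 20351 of 20380 probe sets.

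limma 3.58.1 in R 4.3.3 (lmFit, contrasts.fit and eBayes, 1 mean per group, all 18 arrays) gave differences, standard errors and p-values, adjusted by the Benjamini-Hochberg method over all genes. All adjusted p-values in the text are from limma. Figures were drawn with matplotlib 3.10.9. Data were simulated for 12393 genes with normal residuals drawn independently for each gene and array, and 50 genes were changed at each size. For Silica-LPS minus LPS, 28% of genes changed by 0.25, 88% of those changed by 0.5 and 98% of those changed by 1 (log2) were recovered. There were 4 false calls. For the interaction these shares were 12%, 60% and 98%, with 8 false calls. Variation shared among genes of an array was not simulated, so recovery in the real data may differ.

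The comparison, the 40 gene lists and the named genes were chosen with earlier results of these data known. Genes were named if they were among the 15 largest called rises or 15 largest called falls without overlap of arrays, among at most 4 called genes of largest change in a list, among 24 fixed genes, or among the 5 largest called each way for the interaction and for Silica-LPS minus SPIO-LPS. Any further gene was picked with its values in view. Alternatives took the replicate number as a block, or used a variance trend with robust prior, array weights, no dim genes, other uses of the probe sets, cyclic loess, the compared groups alone and each array left out. The labels do not say whether replicate numbers pair the cultures. Deviations of same-numbered Silica-LPS and LPS arrays correlated at 0.0643, 0.0165 and -0.129, which cannot settle the question.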

Additional observations from a re-analysis of the deposited data

Results flagged for a closer look

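Ccnd2 and Plpp3 were the genes whose silica effect differed between cultures with and without LPS after adjustment. Any difference in handling between Silica and CON is part of the effect without LPS. The effect with LPS minus that without was -0.55 for Ccnd2, the cyclin, and 0.44 for Plpp3, the lipid phosphatase (limma, adjusted p = 0.0452 each). No gene passed with the replicate number as a block, with every probe set on its own, with the compared groups alone or in 10 of 12 fits with 1 array left out.

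Among the named genes, Fgl2 and Nlrp3 had all arrays shifted in opposite directions in Silica-LPS against LPS and in Silica against CON. Genes outside the named ones were not searched for this pattern. Fgl2 stood at -0.67 with LPS and 0.20 without, a difference of -0.87 ± 0.223 (SE) that did not pass (limma, adjusted p = 0.267). Nlrp3 stood at 0.21 with LPS and -0.26 without, a difference of 0.47 ± 0.155 that did not pass either (limma, adjusted p = 0.519).

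Among 2246 probe sets with several gene symbols or none, which the comparisons did not use, 23 differed between Silica-LPS and LPS in limma's test over all 22626 probe sets (1.02%, against 1.94% of all), 13 higher and 10 lower. The largest differences were 1.20 and -0.66.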

How the results depend on the processing

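The 355 genes called in Silica-LPS against LPS became 577 with a variance trend and robust prior, 536 without the dimmest genes and 63 with the compared groups alone, and 186 to 333 with 1 array left out. The 498 of Silica against CON became 850, 755 and 110 under the same changes, 919 with array weights and 203 to 381 with 1 array left out. Under cyclic loess its split was 253 higher and 268 lower (48.6% higher) and without Silica array 1 164 and 217 (43.0%), against 304 and 194. The interaction count of 2 became 40 with the trend, 5 without dim genes, 1 with mean probe sets, 1 with cyclic loess, 0 with every probe set on its own, 0 with the compared groups alone and 0 to 2 with 1 array left out. With the replicate number as a block the counts were 325 for Silica-LPS against LPS, 445 for Silica against CON and 0 for the interaction, and the block ended the calls of 4 of 80 named genes, Ccl12, Cth, Hpgds and Slc25a37. Of these 80 genes, 27 were called in all 14 alternatives, 53 were lost in at least 1 and none reversed. With the compared groups alone 47 were lost. Of 29 uncalled named genes, 2 passed in at least 1 alternative, Il10 and Ch25h. The causes of these shifts were not tested.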

Other observations

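Several genes outside the lists separated the groups clearly and were chosen after their values were seen. Errfi1, which encodes an inhibitor of the epidermal growth factor receptor, had the smallest adjusted p of all genes. It had log2 signals of 10.15, 10.19 and 10.21 in Silica-LPS and 10.64, 10.66 and 10.71 in LPS, a fall of 1.40-fold (-0.48 ± 0.0387, limma, adjusted p = 2.98e-05). Its arrays lay within a narrow range in each group, and it was also lower in Silica than in CON (-0.30, adjusted p = 0.000539). Cav1 and Cav2, which encode the proteins of caveolae, were both higher. Cav1 had 12.40, 12.41 and 12.46 in Silica-LPS against 11.94, 12.04 and 11.92 in LPS (0.45 ± 0.0762, adjusted p = 0.00434), and Cav2 had 11.79, 11.77 and 11.87 against 11.48, 11.48 and 11.36 (0.37 ± 0.0466, adjusted p = 0.000587). No array of either gene overlapped between the groups.

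Thbd, which encodes the thrombin-binding protein thrombomodulin, had 5.83, 5.77 and 5.69 in Silica-LPS and 6.34, 6.10 and 6.38 in LPS (-0.51 ± 0.0831, adjusted p = 0.004). Its groups did not overlap. Other genes that rose were Pdpn, which encodes podoplanin (0.36), Cd24a (0.47), Fabp3, a fatty acid carrier (0.59), Aldoc, a glycolytic aldolase (0.55), and Pygl, a glycogen phosphorylase (0.40). Each of these kept its call whichever array was left out.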
